A study of Mus musculus with 30 samples.

Results

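The collagen genes outside collagen VI were 35 of the 20093 genes listed in the deposited tables. They were every protein-coding gene with a symbol of the form Col, a number, a and a number, leaving out the 6 collagen VI genes. By the type of assembly their chains form, 9 were fibrillar (collagens I, II, III, V and XI), 8 network-forming (IV and VIII), 7 fibril-associated with interrupted triple helices, called FACIT, and 2 multiplexins (XV and XVIII). The other 9 belong to none of these groups in the scheme used, among them Col13a1 and Col23a1, which encode transmembrane collagens, and Col24a1 and Col27a1, which encode minor collagens with a fibrillar type of triple helix. Of the 35 genes, 23 were listed in every table, 29 were high enough to be tested in at least 1 comparison, and 19 passed the threshold in at least 1 of the 8 comparisons between sorted populations.

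Collagen chains wind around each other in a triple helix and are secreted by the cells of connective tissue. Fibrillar collagens give the intestinal wall its tensile strength, collagen IV forms the sheet of basement membranes under epithelium and around vessels and muscle cells, and FACIT collagens coat the surface of fibrils. Collagens XV and XVIII lie at basement membrane zones and carry sugar side chains, and the end of the collagen XVIII chain can be cleaved to give endostatin, an inhibitor of vessel growth.

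All mice were of the C57BL/6 strain and of the genotype ColVI-cre, Rosa mTmG, so every group carried both the Cre driver and the reporter. In this reporter a cell makes membrane Tomato until Cre has acted in it, and from then on it and its descendants make membrane GFP. GFP therefore records that the collagen VI driver (Col6a1cre in the design) was active in a cell or in an ancestor of it, not that it is active at sampling. Cells were freshly isolated from the normal colon, from the colon of mice with DSS (dextran sulfate sodium) colitis, and from the normal small intestine. The colon gave GFP-positive, GFP-negative (titled Tomato) and unsorted cells of each condition, and the small intestine gave GFP-high, GFP-low, GFP-negative and unsorted cells. The sorted cells are labelled intestinal mesenchymal cells and the unsorted ones intestinal cells. Each of the 10 groups had 3 libraries of 3′ RNA sequencing, which reads the end of each transcript. In the unsorted small intestine only libraries 2 and 3 were analysed here. The labels do not say whether replicates came from separate mice, so p-values measure the spread between these samples only, which may be technical. No source used here gives the gates for GFP-high and GFP-low, the ages of the mice or the dose of DSS.

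Values are the authors' normalised read counts, rounded to whole numbers. Each tissue and condition (healthy colon, colitis, small bowel) was scaled separately, and the 12 sorted colon libraries were also scaled together, on what is called the common scale here. Levels are therefore compared within a scale. Estimated depth was 1230000 to 4420000 reads a library, with the shallowest libraries among the sorted small intestine cells. Fold changes are on the scale of log2(value + 1), which understates changes of low genes. "Higher" and "lower" calls have an adjusted p under 0.05 from limma, with Benjamini-Hochberg adjustment over all genes tested. In these bulk libraries, fewer cells of a type and less RNA per cell cannot be told apart.

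The 6 mesenchymal markers (such as Dcn and Pdgfra) were listed in every group and none was at 0 throughout a group. They summed to 40864 to 46304 in the GFP-negative and 17311 to 22997 in the GFP-positive libraries of normal colon, where 9 epithelial markers summed to 111 to 565. In the unsorted normal colon the epithelial markers summed to 2121 to 17835. The mesenchymal markers summed to 12901 to 35234 there, which overlapped the GFP-positive range and lay below the GFP-negative one. Immune markers summed to 1052 to 4727 in the GFP-negative libraries of normal colon against 168 to 558 in the GFP-positive ones, and replicate 3 was the highest. The library of GFP-negative normal colon replicate 1 stood apart in its collagens. Fibrillar genes made up 63.1% of its collagen count against 76.6% and 76.9% in the other 2 libraries of its group.

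The network and fibrillar genes on which the results turn most are shown by the 200 bases just before their start, 5′ to 3′ on the gene's strand, with matches to 3 core promoter motifs in capitals. Col4a5 and Col4a6 lie head to head on chromosome X with 1308 bases between their starts and were higher in GFP-positive cells, Col8a1 was lower in them, and Col3a1, a fibrillar gene, fell in them in colitis. The windows are chrX:141475185-141475384 (plus strand) for Col4a5, chrX:141474077-141474276 (minus strand) for Col4a6, chr16:57754738-57754937 (minus strand) for Col8a1 and chr1:45311338-45311537 (plus strand) for Col3a1, from RefSeq on GRCm38.p6, the assembly also called mm10.
Col4a5: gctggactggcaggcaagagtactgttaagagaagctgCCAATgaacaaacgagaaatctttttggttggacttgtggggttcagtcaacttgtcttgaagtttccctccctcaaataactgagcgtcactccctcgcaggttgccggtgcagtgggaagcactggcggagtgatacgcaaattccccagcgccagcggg
Col4a6: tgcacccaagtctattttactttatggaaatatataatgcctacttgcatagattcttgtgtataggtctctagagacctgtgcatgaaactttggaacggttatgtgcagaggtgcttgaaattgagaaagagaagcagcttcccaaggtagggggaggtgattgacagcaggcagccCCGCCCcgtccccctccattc
Col8a1: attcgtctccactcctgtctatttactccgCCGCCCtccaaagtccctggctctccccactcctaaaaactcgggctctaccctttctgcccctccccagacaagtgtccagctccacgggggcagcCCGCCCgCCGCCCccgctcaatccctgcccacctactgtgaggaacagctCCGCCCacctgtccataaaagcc
Col3a1: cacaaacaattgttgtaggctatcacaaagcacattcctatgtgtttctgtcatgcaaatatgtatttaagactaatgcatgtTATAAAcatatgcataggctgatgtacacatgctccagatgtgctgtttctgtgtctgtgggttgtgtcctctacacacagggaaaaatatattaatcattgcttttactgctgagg

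The motifs searched on both strands were the CCAAT box (letters CCAAT), the GC box (letters GGGCGG, printed in capitals as its reverse complement where it lies on the other strand) and the TATA box (letters TATAAA), none of which contains another. The window of Col4a5 held 1 CCAAT box, that of Col4a6 held 1 GC box, that of Col8a1 held 4 GC boxes and that of Col3a1 held 1 TATA box. Over 32817 promoter windows of the same length, 29.3% held the CCAAT box, 31.0% the GC box and 9.96% the TATA box. Of the 27 windows matched to 26 collagen genes, 9 held the CCAAT box, 17 the GC box and 3 the TATA box. A match describes these letters only and is not evidence that a factor binds there. The table used had no matching windows for some collagens, Col1a1 and Col14a1 among them.

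Collagens outside VI took 1.90% to 2.27% of the total count in the GFP-positive and 1.698% to 2.25% in the GFP-negative libraries of normal colon, and 0.663% to 1.17% in the unsorted ones. In DSS colon the GFP-positive libraries held 0.981% to 1.12%, below all 3 GFP-negative libraries at 1.62% to 2.28%. In the small intestine the share was lowest in the unsorted libraries, at 0.208% and 0.279%, and was 0.811% to 1.15% in GFP-high, 1.22% to 1.54% in GFP-low and 1.47% to 2.07% in GFP-negative cells. Of the sorted populations of the small intestine, GFP-high thus lay below the other 2 without overlap, while GFP-low and GFP-negative overlapped. Col1a1, Col1a2 and Col3a1, the chains of collagens I and III, made up 50.0% to 73.3% of the collagen count in every library. Shares are read between libraries here and not between genes, because the counts come from transcript ends and were not divided by length.

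**Figure D1:**
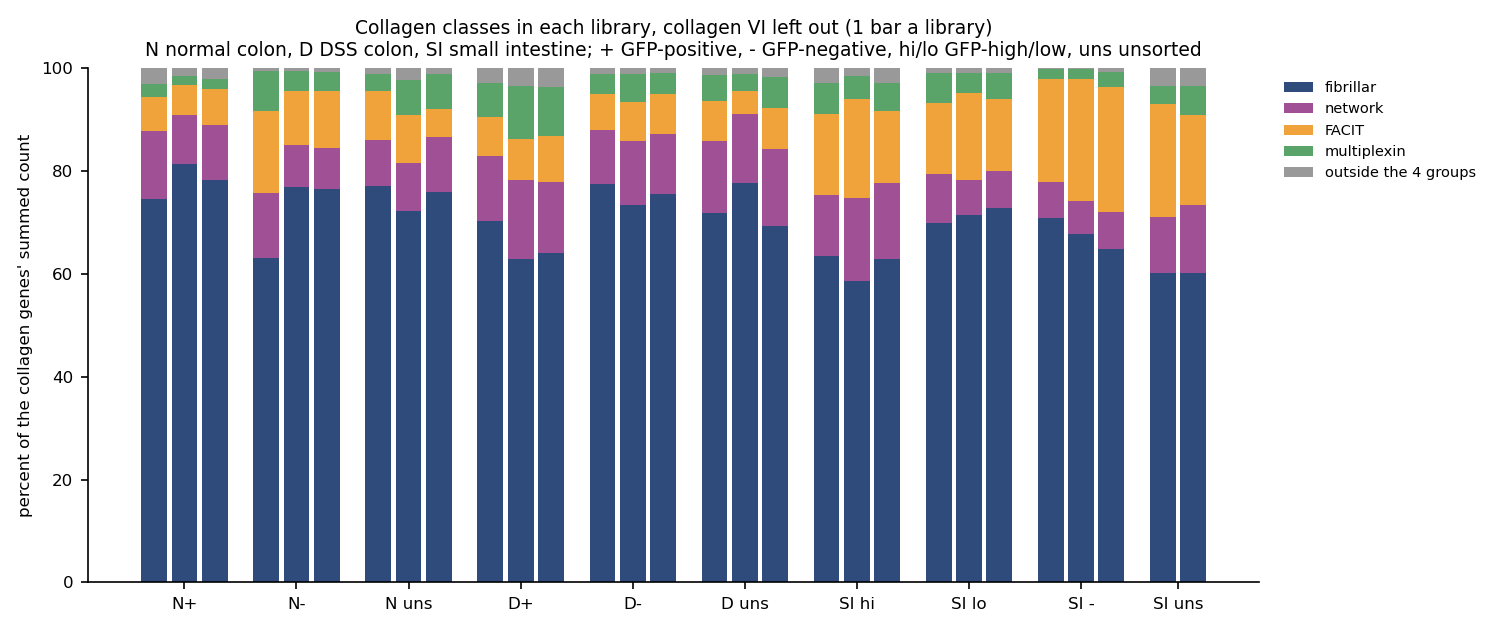
Stacked bars give the percent of the collagen count (y axis) taken by each class in each library (x axis, by group). Fibrillar genes made up 62.8% to 70.2% in GFP-positive and 73.4% to 77.4% in GFP-negative cells of DSS colon, and FACIT genes 5.83% to 6.94% in GFP-positive and 10.5% to 15.9% in GFP-negative cells of normal colon.

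The classes were not spread alike over the groups. FACIT genes took 19.98% to 24.3% of the collagen count in GFP-negative cells of the small intestine and 5.83% to 6.94% in GFP-positive cells of the normal colon, the highest and the lowest of the sorted groups outside colitis. Multiplexins took 1.77% to 2.69% in GFP-positive cells of normal colon and 6.60% to 10.3% in those of DSS colon, without overlap. These shares were described and not tested.

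The comparison of GFP-positive with GFP-negative cells asks how cells with a history of the collagen VI driver differ from the other mesenchymal cells. In normal colon, the basement membrane chains Col4a5 and Col4a6 and the minor collagens Col13a1, Col24a1 and Col27a1 were higher in GFP-positive cells, while Col8a1, Col14a1, Col15a1 and Col28a1 were lower. Of 25 collagens tested, 5 were thus higher and 4 lower, where 2.97% and 3.01% of all genes tested were called higher and lower, or 5.98% in all. The median log2 fold change was 0.03 over the collagens and 0.00 over all genes. None of the 6 fibrillar genes tested passed the threshold (log2 fold changes from −0.40 to 0.26), and none of the 6 had an unadjusted p under 0.05 either. That does not show that they were alike in both populations. By the authors' deposited table, Col4a5 and Col8a1 of these 9 had a DESeq false discovery rate under 0.05 (0.0343 and 0.0111).

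The network collagens held changes in both directions. Col4a5 (chrX:141475385-141689234), a collagen IV chain of specialised basement membranes that pairs there with the product of Col4a6 among others, had normalised counts of 533, 505 and 726 in GFP-positive cells of normal colon against 61, 114 and 85 in GFP-negative cells. Col4a6 (chrX:141165403-141474076), which lies beside it on the opposite strand, had 240, 492 and 398 against 52, 179 and 91. All GFP-positive libraries lay above all GFP-negative ones for both genes, with log2 fold changes of 2.77 (SE 0.29, limma adjusted p = 0.000482) and 1.92 (SE 0.43, limma adjusted p = 0.0232). Without replicate 2 of the GFP-positive cells the adjusted p of Col4a6 was 0.106. The common chains Col4a1 and Col4a2 did not pass the threshold in this comparison. Col4a1 had 7919, 5046 and 5494 in GFP-positive and 5812, 4731 and 4612 in GFP-negative cells, which overlapped.

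Col8a1 (chr16:57624258-57754737) encodes a short-chain collagen of vessel walls and other matrices. It had 101, 130 and 79 normalised counts in GFP-positive and 1380, 758 and 549 in GFP-negative cells of normal colon, a log2 fold change of −3.02 (SE 0.35, limma adjusted p = 0.00067). The lowest GFP-negative library was above the highest GFP-positive one by several fold, and the 3 unsorted libraries, at 249, 100 and 156, overlapped the GFP-positive range.

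Among FACIT genes, Col14a1 (chr15:55307750-55520803), whose product binds the surface of collagen I fibrils and limits their lateral growth, was the only one called in normal colon. It had 1609, 1526 and 1406 normalised counts in GFP-positive cells against 8203, 7020 and 6858 in GFP-negative cells, with a log2 fold change of −2.28 (SE 0.26, limma adjusted p = 0.00067). Col12a1, which encodes the related collagen XII, lay the other way round. It had 878, 839 and 946 in GFP-positive against 459, 593 and 480 in GFP-negative cells, without overlap, but its log2 fold change of 0.80 did not pass the threshold (limma adjusted p = 0.0826). The multiplexin Col15a1 (chr4:47208161-47313167) was lower in GFP-positive cells, at 1454, 923 and 1061 against 4642, 2808 and 2636. Its log2 fold change was −1.53 (SE 0.31, limma adjusted p = 0.0151), and the adjusted p was 0.0702 without GFP-positive replicate 2. The call of Col15a1 was lost in 2 of the 6 fits without 1 library. The other multiplexin, Col18a1, overlapped between the populations, at 712, 556 and 616 against 773, 737 and 574.

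Of the genes outside the 4 groups, Col27a1 had 2191, 1149 and 1494 normalised counts in GFP-positive and 302, 474 and 466 in GFP-negative cells of normal colon (log2 fold change 1.94, SE 0.31, limma adjusted p = 0.00381). The other called genes of this set had low counts. Col13a1, a transmembrane collagen of cell contacts, had 46, 35 and 49 against 3, 21 and 7, and its adjusted p of 0.0387 rose to 0.154 without GFP-positive replicate 3. Its call was lost in 5 of the 6 fits without 1 library. Col24a1 had 34, 52 and 34 against 3, 6 and 2. Col28a1, which is known from peripheral nerve, had 1, 2 and 2 against 22, 25 and 22, at the level of a few reads in the GFP-positive libraries. No library of either population reached into the range of the other for these 3 genes. Col24a1 reached the mean of 10 set for testing only in GFP-positive cells, and Col28a1 only in GFP-negative cells. Each could therefore only be called in that direction.

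**Figure D2:**
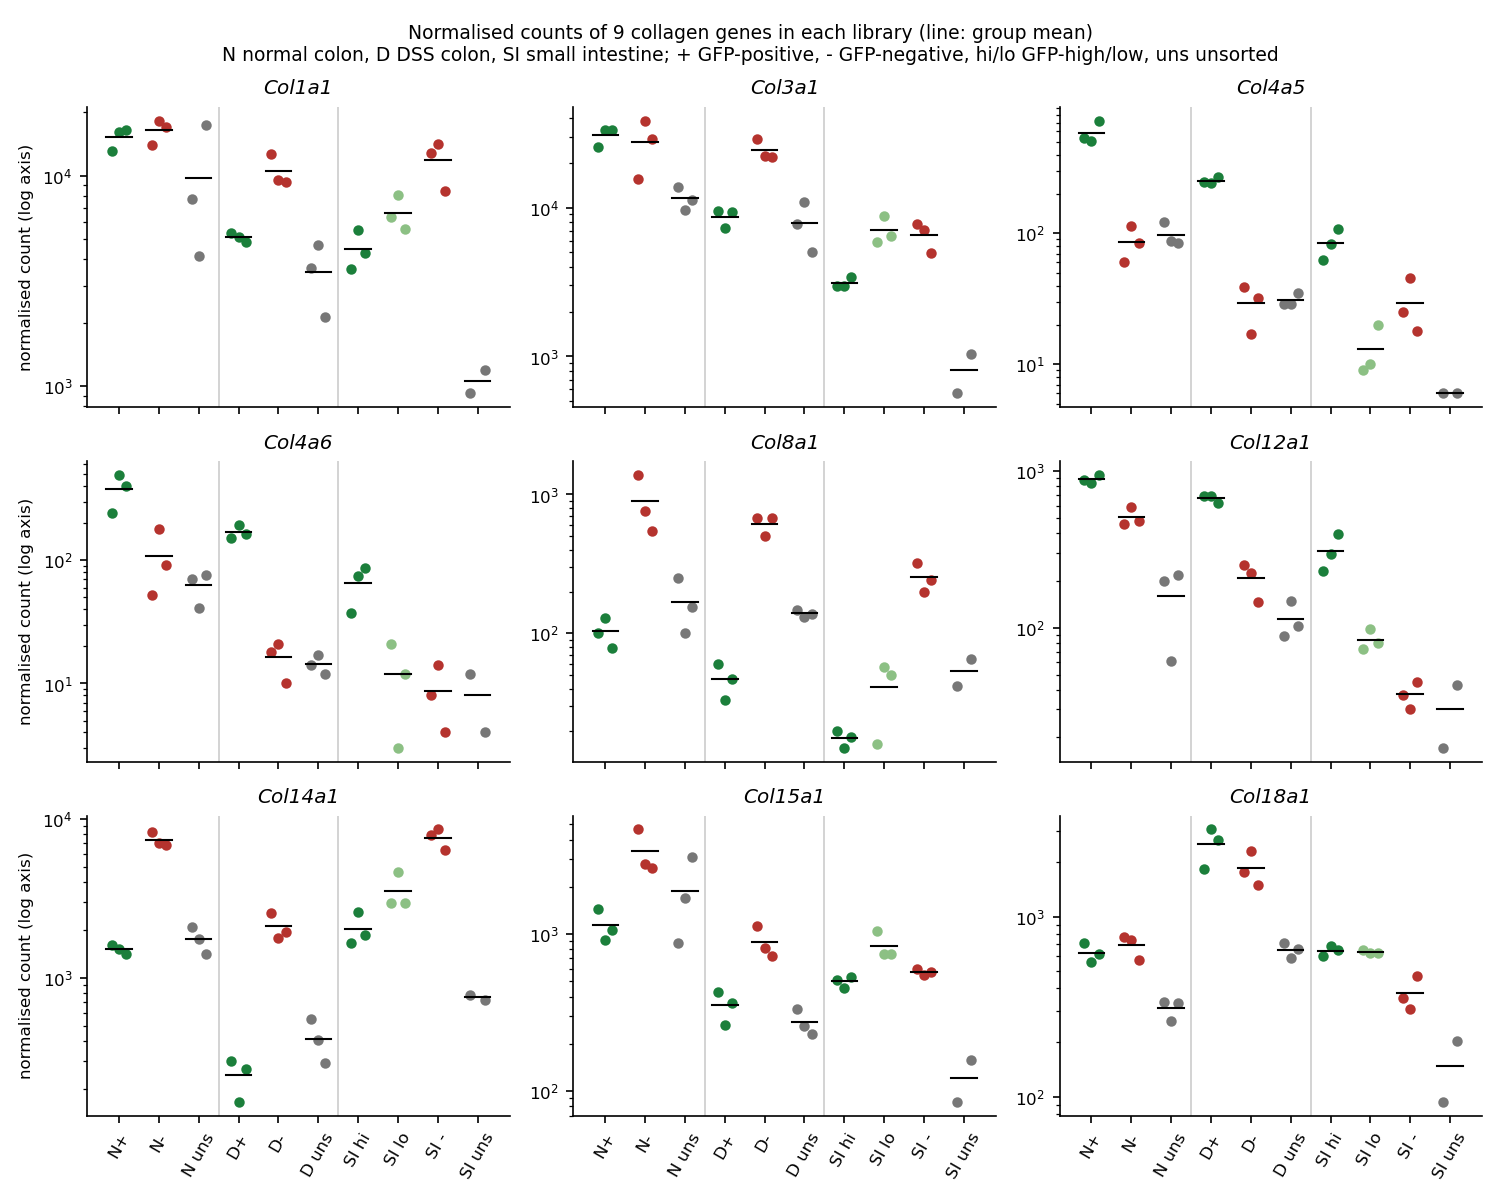
Points give the normalised count (log axis) of 9 collagens in every library, by group on the x axis, and lines give group means. Normal colon, DSS colon and small intestine are on separate scales. Col4a5 and Col4a6 sit higher and Col8a1 and Col14a1 lower in the GFP-positive than in the GFP-negative libraries of both colon conditions.

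In DSS colon the same comparison gave more calls, and fibrillar genes were among them. Col1a1, Col1a2 and Col3a1 were lower in GFP-positive than in GFP-negative cells, as were Col4a2, Col8a1, Col14a1 and Col15a1. Col4a5, Col4a6, Col5a3, Col12a1, Col13a1, Col23a1, Col24a1 and Col27a1 were higher. Of 22 collagens tested 8 were higher and 7 lower, where 8.22% and 8.9% of all genes tested were called higher and lower, or 17.1% in all. The median log2 fold change was −0.09 over the collagens and 0.01 over all genes. The normal and DSS comparisons share no library. All 5 collagens called higher in normal colon were also among the 8 called higher in DSS colon, and 3 of the 4 called lower were among the 7 called lower there. None was called in opposite directions. The fourth, Col28a1, was not tested in DSS colon. How often genes in general were called in both conditions is not given here, so this overlap is not read as particular to collagens.

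Col3a1 (chr1:45311538-45349706), the chain of collagen III in compliant tissues, had 9456, 7274 and 9324 normalised counts in GFP-positive cells of DSS colon against 28832, 22290 and 21997 in GFP-negative cells. Its log2 fold change was −1.49 (SE 0.21, limma adjusted p = 0.000127). Col1a1 (chr11:94936224-94953042), a chain of collagen I, had 5369, 5088 and 4834 against 12667, 9503 and 9373 (log2 fold change −1.03, SE 0.19, limma adjusted p = 0.0016). Both genes were low in all 3 GFP-positive libraries, without overlap. Col1a2, the other chain of collagen I, had 5802, 4318 and 3438 against 9564, 6848 and 6596, and its call was lost without GFP-positive replicate 3 (limma adjusted p 0.0295 with all libraries and 0.141 without it). The call of Col1a2 was lost in 3 of the 6 fits without 1 library. Col5a3, a chain of collagen V, ran against the other fibrillar genes. It had 766, 894 and 612 against 447, 409 and 360, a log2 fold change of 0.89 (SE 0.19, limma adjusted p = 0.00399).

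The network and FACIT genes called in normal colon were far apart in DSS colon too. Col4a5 had 248, 243 and 269 normalised counts in GFP-positive against 39, 17 and 32 in GFP-negative cells (log2 fold change 3.14, SE 0.27, limma adjusted p = 1.05e-06). Col4a6 had 153, 194 and 163 against 18, 21 and 10 (3.35, SE 0.27, limma adjusted p = 7.29e-07). Col8a1 had 60, 33 and 47 against 677, 503 and 673 (−3.73, SE 0.22, limma adjusted p = 8.19e-08). None of these 3 genes had overlapping populations. Col14a1 had 302, 165 and 269 against 2573, 1782 and 1953 (−3.12, SE 0.23, limma adjusted p = 2.75e-07), and Col12a1 had 691, 691 and 627 against 250, 225 and 146 (1.72, SE 0.21, limma adjusted p = 3.14e-05). The related collagens XII and XIV thus lay on opposite sides, both past the threshold. By the authors' deposited table, Col4a5, Col4a6, Col8a1 and Col14a1 of these 15 genes had a false discovery rate under 0.05.

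The remaining calls in DSS colon were of a common basement membrane chain, a multiplexin and genes outside the 4 groups. Col4a2, a common chain of all basement membranes, had 895, 1026 and 921 in GFP-positive and 2199, 1718 and 1338 in GFP-negative cells (log2 fold change −0.86, SE 0.20, limma adjusted p = 0.00727). Col15a1 had 430, 264 and 363 against 1121, 813 and 725 (−1.33, SE 0.22, limma adjusted p = 0.000533). Each GFP-negative library was above each GFP-positive one for both genes. The transmembrane collagen Col23a1 had 125, 147 and 163 against 72, 53 and 95 (1.005, SE 0.23, limma adjusted p = 0.00734), and Col13a1 had 19, 21 and 33 against 5, 5 and 6 (1.96, SE 0.40, limma adjusted p = 0.0034). Col24a1 had 6, 21 and 14 against 0, 2 and 4 (log2 fold change 2.42, SE 0.72), and lost its call without GFP-positive replicate 2 (limma adjusted p 0.0321 with all libraries and 0.160 without it). Its call was lost in 4 of the 6 fits without 1 library. Col13a1 and Col24a1 reached the mean of 10 set for testing only in the GFP-positive cells here, so they could only be called higher. Col27a1, at 826, 921 and 981 against 670, 552 and 431, had a smaller log2 fold change (0.74, SE 0.19) than in normal colon, and its adjusted p of 0.015 was 0.0659 without GFP-negative replicate 3. The call of Col27a1 was lost in 3 of the 6 fits without 1 library.

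Markers of other cells moved with these contrasts. Of 10 pericyte and smooth muscle markers, whose cells also lay down collagen IV, 2 were higher in GFP-positive cells of normal colon, and 6 were higher and 1 lower in those of DSS colon. They summed to 3695 to 5577 in GFP-positive and 1194 to 2481 in GFP-negative libraries of normal colon, and to 3907 to 3979 and 1774 to 2341 in DSS colon. Of the mesenchymal markers, Dcn, Lum and Thy1 were lower and Pdgfra was higher in GFP-positive cells of both conditions. In DSS colon 4 epithelial markers were lower in GFP-positive cells (sums of 163 to 194 against 269 to 683), as were 3 endothelial markers (sums of 117 to 163 against 197 to 267) and 2 immune markers (sums of 121 to 324 against 366 to 783). In normal colon 3 immune markers were lower. Their part in the collagen differences was not tested.

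**Figure D3:**
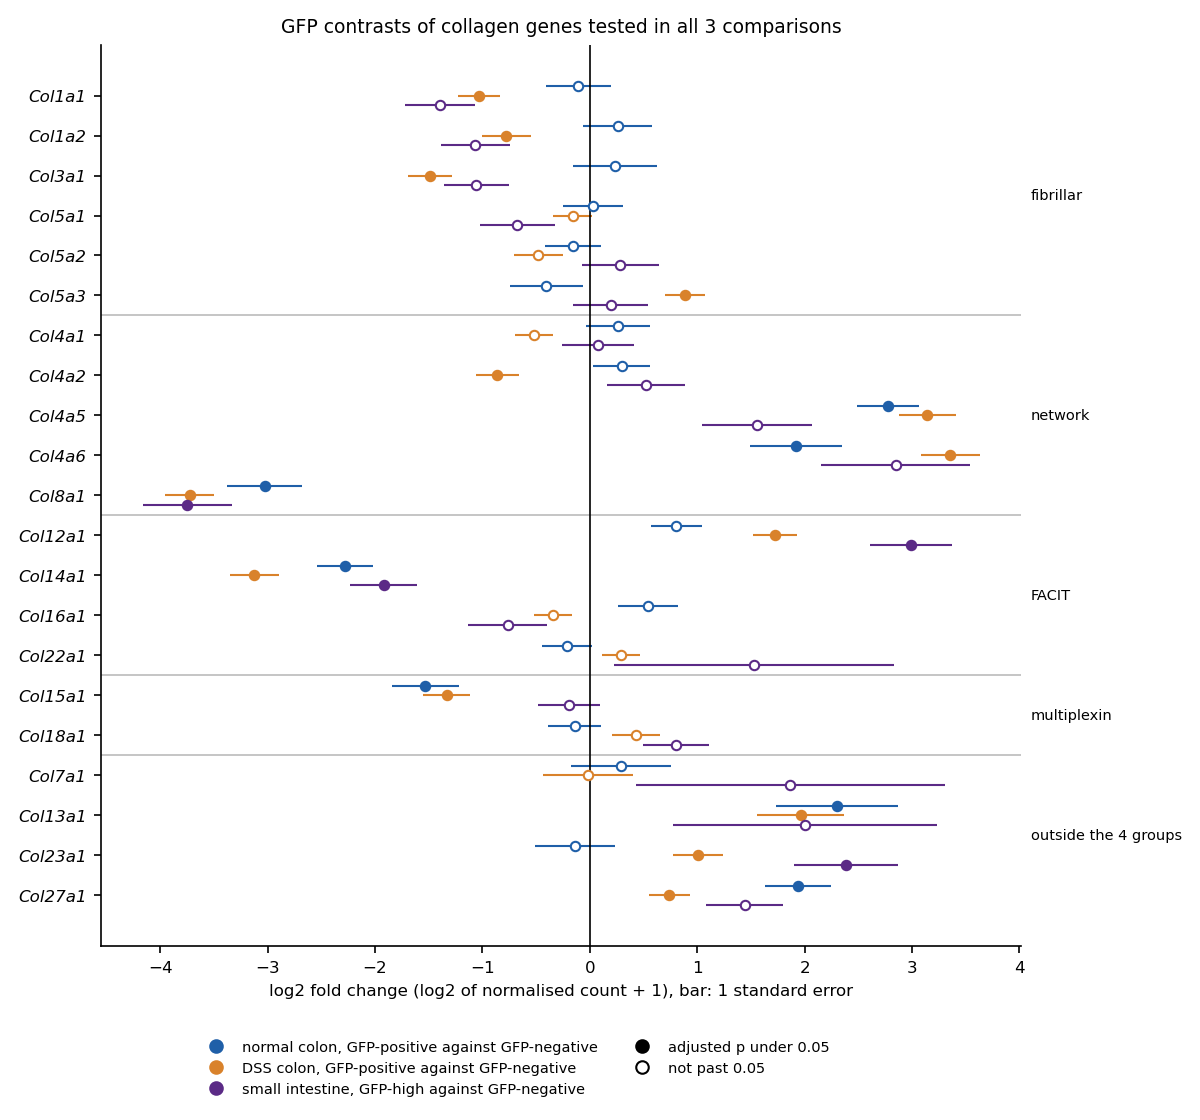
Points give the log2 fold change (x axis, with bars of 1 SE) of 21 collagens (y axis) between GFP-positive and GFP-negative cells of normal and DSS colon, and between GFP-high and GFP-negative cells of the small intestine. Filled points have a limma adjusted p under 0.05. Col8a1 and Col14a1 are on the negative side and filled in all 3 contrasts.

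The comparison of DSS with normal colon was made within each sorted population on the common scale, where all values of this and the next 3 paragraphs stand. It asks how each population differs in colitis. The sample titles number the normal and the DSS colon libraries in separate blocks. Any difference in handling between the blocks cannot be told apart from colitis in these values. In GFP-positive cells 4 fibrillar genes were lower in DSS colon, together with Col4a5, Col14a1 and Col15a1, and Col18a1 and Col23a1 were higher. Of 22 collagens tested, 2 were thus higher and 7 lower, where 10.2% and 9.46% of all genes were called higher and lower, or 19.7% in all. The median log2 fold change was −0.48 over the collagens and −0.01 over all genes. In GFP-negative cells 1 of 22 was higher (Col18a1) and 5 were lower, where 6.03% and 4.27% of all genes were called higher and lower, or 10.3% in all. The medians were −0.12 and −0.02. The GFP contrasts above and these responses use the same libraries, so the 2 sets of values are not independent of each other. The authors' deposited false discovery rates were under 0.05 for none of these collagens in either population.

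Col1a1, Col1a2, Col3a1 and Col5a2 were the 4 of 6 fibrillar genes called lower in GFP-positive cells. Col5a3 did not pass the threshold, at 889, 966 and 434 in normal and 896, 1051 and 716 in DSS colon. Col3a1 had 21397, 27823 and 28136 normalised counts in normal and 11058, 8547 and 10918 in DSS colon (log2 fold change −1.34, SE 0.23, limma adjusted p = 0.00169). Col1a1 had 11013, 13545 and 13926 against 6278, 5977 and 5660 (−1.10, SE 0.21, limma adjusted p = 0.00346). Neither gene overlapped between normal and DSS libraries. Col1a2 had 12699, 9951 and 6904 against 6785, 5073 and 4025, and Col5a2, a chain of collagen V that lies beside Col3a1 on chromosome 1, had 948, 1224 and 889 against 684, 681 and 585. Both calls were lost without DSS replicate 3, with limma adjusted p of 0.0343 and 0.0386 with all libraries and 0.159 and 0.146 without it. Each was lost in 4 of the 6 fits without 1 library. In GFP-negative cells the same chains had other values. Col3a1 there had 13033, 32429 and 24457 in normal and 33847, 26269 and 25847 in DSS colon, and Col1a1 had 11788, 15427 and 14411 against 14870, 11199 and 11014, both overlapping and not past the threshold.

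Col18a1 (chr10:77052178-77166548) was the collagen with the largest rise in colitis. In GFP-positive cells it had 595, 466 and 519 normalised counts in normal and 2158, 3580 and 3123 in DSS colon, a log2 fold change of 2.46 (SE 0.23, limma adjusted p = 1.59e-05). In GFP-negative cells it had 651, 622 and 484 against 2077, 2738 and 1754 (1.89, SE 0.27, limma adjusted p = 0.00125). Every DSS library of both populations was above every normal one, and leaving out any 1 library kept both calls. The 3′ part of Col18a1 overlaps Slc19a1, a folate carrier gene on the other strand (chr10:77032241-77061002), over 8825 bases. Whether counting used the strand is not given in the sources used here, so reads of the overlap could be assigned to either gene. Slc19a1 was listed at 23 to 69 normalised counts over the 12 sorted colon libraries, far below Col18a1 in each of them. These listed counts do not show to which gene the reads of the overlap were assigned.

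Its fellow multiplexin Col15a1 moved the other way. It had 1216, 774 and 893 in normal against 503, 310 and 425 in DSS colon in GFP-positive cells (log2 fold change −1.22, SE 0.23, limma adjusted p = 0.00379), and 3906, 2370 and 2219 against 1315, 958 and 852 in GFP-negative cells (−1.42, SE 0.30, limma adjusted p = 0.0125). Col14a1 also fell in both. It had 1345, 1280 and 1184 against 354, 193 and 315 in GFP-positive cells (−2.18, SE 0.23, limma adjusted p = 6.18e-05), and 6902, 5925 and 5775 against 3020, 2100 and 2294 in GFP-negative cells (−1.34, SE 0.27, limma adjusted p = 0.00988). Neither gene overlapped between conditions in either population. The rest of the calls belonged to a single population. Col4a5 in GFP-positive cells had 446, 424 and 612 against 290, 285 and 315, and Col23a1 there had 94, 33 and 70 against 146, 173 and 190. Col4a6 in GFP-negative cells had 43, 151 and 76 against 21, 25 and 12, Col5a3 had 1215, 812 and 888 against 524, 482 and 423, and Col22a1, a FACIT collagen of tissue junctions, had 415, 427 and 431 against 251, 201 and 254. None of these 5 overlapped between normal and DSS libraries. The call of Col4a5 was lost without DSS replicate 2 of GFP-positive cells (limma adjusted p 0.0255 with all libraries and 0.100 without it). It was lost in 4 of the 6 fits without 1 library. In GFP-negative cells only Col18a1 of the 6 calls held without DSS replicate 3, and the others then had limma adjusted p of 0.0673 to 0.133. Without normal replicate 1, 9 collagens were called there.

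The difference between the 2 responses was tested directly. No collagen of the 23 tested passed the limma threshold, where 0.0148% and 0.0371% of all genes were called higher and lower, or 0.0519% in all. Of the collagens 12 of the 23 had an unadjusted p under 0.05, as did 1081 of 13488 genes. The response of Col3a1 was lower in GFP-positive than in GFP-negative cells by 1.72 on the log2 scale (a difference of −1.72, SE 0.45, unadjusted p = 0.0012, limma adjusted p = 0.286). That of Col4a2 differed by −1.15 (limma adjusted p = 0.416) and that of Col27a1, whose GFP contrast was smaller in DSS than in normal colon, by −1.19 (limma adjusted p = 0.456). Single-population calls are therefore not shown to be particular to that population. GFP-negative normal replicate 1, which had the lowest Col3a1 of its group, enters these differences.

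With library totals made equal in place of the authors' scaling, the median over all genes moved from −0.01 to −0.13 in GFP-positive cells and from −0.02 to −0.14 in GFP-negative cells. The share of higher genes among all calls then fell from 52.0% to 38.5% and from 58.5% to 44.1%, while the collagen calls became 2 higher and 9 lower, and 1 higher and 6 lower. No collagen changed direction. Marker lists moved with colitis too. Of the pericyte and smooth muscle list, 5 of 10 were higher in DSS colon in GFP-positive cells and 3 in GFP-negative cells, where 1 was lower. Of the 6 mesenchymal markers 3 were lower in GFP-positive cells (Vim, Lum and Thy1, with a list median of −0.89 on the log2 scale) and 1 in GFP-negative cells (Vim, median −0.29). Their part in the collagen responses was not tested.

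**Figure D4:**
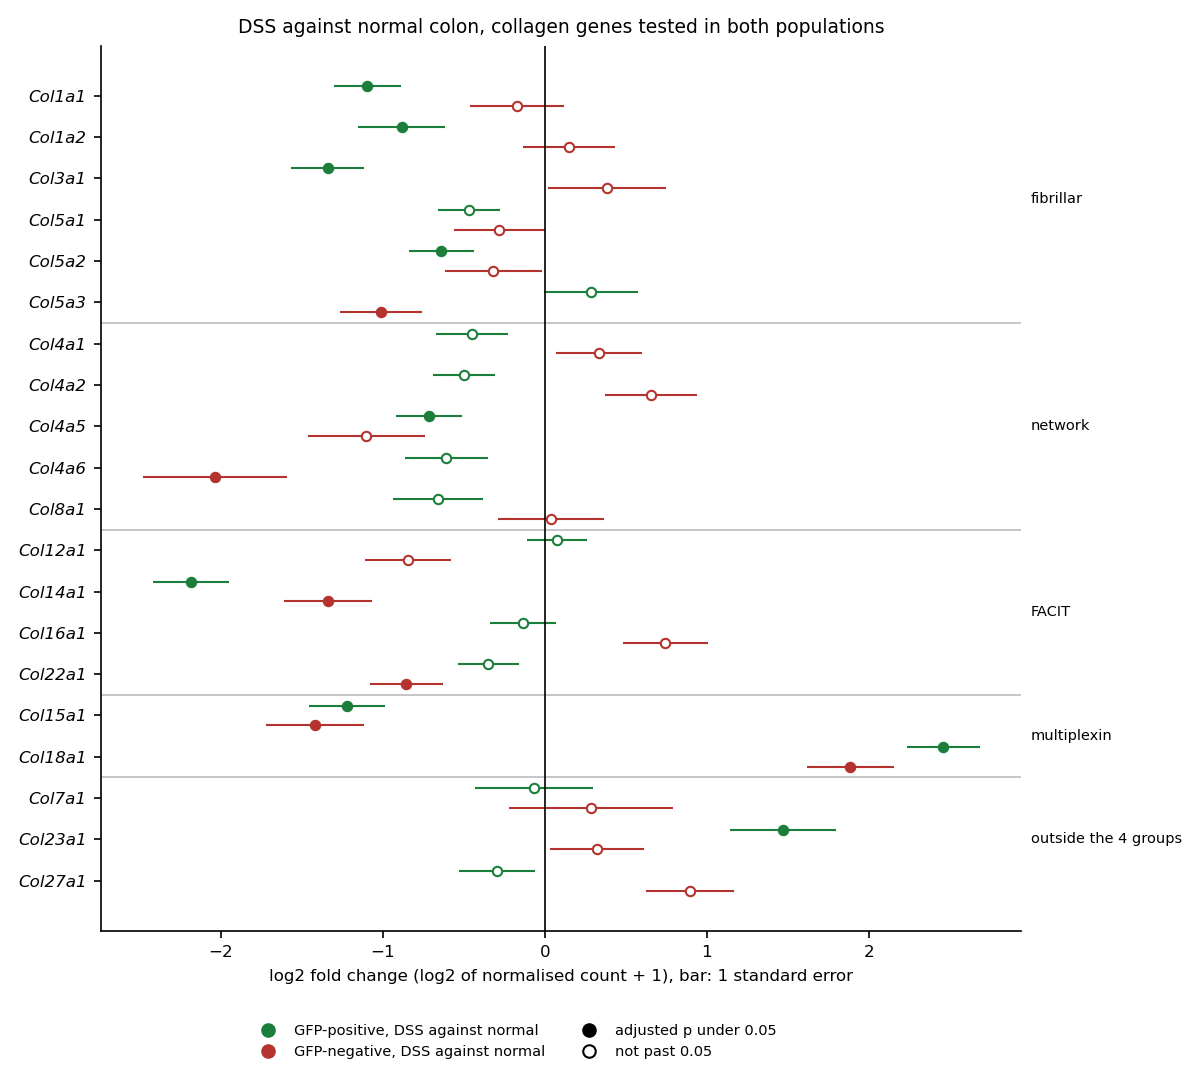
Points give the log2 fold change between DSS and normal colon (x axis, with bars of 1 SE) of 20 collagens (y axis) in GFP-positive and GFP-negative cells. Filled points have a limma adjusted p under 0.05. Col18a1 is filled on the positive side and Col14a1 and Col15a1 on the negative side in both populations.

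In the small intestine the FACIT pair and Col8a1 separated the GFP-high from the GFP-negative cells, and fibrillar genes did not pass the threshold. Col12a1 and Col23a1 were higher and Col8a1 and Col14a1 lower in GFP-high than in GFP-negative cells, 2 and 2 of 23 collagens tested, where 0.395% and 0.5% of all genes were called higher and lower, or 0.894% in all. In GFP-low against GFP-negative cells 0 of 21 were higher and 1 was lower, Col8a1, where 0.112% and 0.562% of genes were called, or 0.675% in all. In GFP-high against GFP-low cells 3 of 23 were higher and 0 lower, where 0.368% and 0.0164% of genes were called, or 0.384% in all. These 3 comparisons share groups and are given side by side. Leaving out GFP-high replicate 1 or 3 left 2 calls in the first and none in the last, and leaving out GFP-negative replicate 1 or 2 also left 2 in the first and none in GFP-low against GFP-negative cells. No collagen higher in GFP-positive cells of normal colon (0 of 5) was among the 2 higher in GFP-high cells here, while both collagens lower in GFP-high cells were among the 4 lower in the colon. The overlap of calls over all genes is not given here either. The deposited false discovery rate was under 0.05 for Col8a1 alone in the first comparison (0.00592 in the authors' deposited table) and for no collagen in the other 2.

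Col8a1 had 20, 15 and 18 normalised counts in GFP-high, 16, 57 and 50 in GFP-low, and 320, 197 and 242 in GFP-negative cells. The GFP-negative libraries stood clear above the other 6, which overlapped each other. The log2 fold change to GFP-negative cells was −3.75 (SE 0.41, limma adjusted p = 0.0016) in GFP-high and −2.75 (SE 0.48, limma adjusted p = 0.0343) in GFP-low cells. Without GFP-low replicate 1 the latter had an adjusted p of 0.094, and its call was lost in 5 of the 6 fits without 1 library. Col12a1 was graded over the populations, at 229, 297 and 395 in GFP-high, 73, 98 and 80 in GFP-low and 37, 30 and 45 in GFP-negative cells, with no overlap between neighbours. It was higher in GFP-high than in GFP-negative cells by 2.99 (SE 0.38, limma adjusted p = 0.00309) and than in GFP-low cells by 1.84 (SE 0.33, limma adjusted p = 0.0315) on the log2 scale. The call against GFP-low cells was lost in 5 of the 6 fits without 1 library, with a limma adjusted p of 0.179 without GFP-high replicate 3. GFP-low did not pass the threshold against GFP-negative cells.

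Col14a1 ran in the opposite order. It had 1651, 2590 and 1859 in GFP-high, 2950, 4604 and 2970 in GFP-low and 7870, 8570 and 6370 in GFP-negative cells, also without overlap. Only the outer 2 groups passed the threshold (log2 fold change −1.92, SE 0.31, limma adjusted p = 0.0127), and the adjusted p was 0.0684 without GFP-negative replicate 1. The call of Col14a1 was lost in 4 of the 6 fits without 1 library. Col23a1 had 224, 162 and 232 in GFP-high, 45, 49 and 33 in GFP-low and 46, 18 and 66 in GFP-negative cells, so GFP-high libraries were high and the other 2 groups overlapped. Its adjusted p was 0.042 against GFP-negative and 0.0117 against GFP-low cells (limma), and 0.209 and 0.0908 without GFP-high replicate 3. These calls were lost in 5 and 3 of the 6 fits without 1 library. Col4a5 had 63, 83 and 109, then 9, 10 and 20, then 25, 46 and 18 in the same order of groups, which puts GFP-high above both. It passed the threshold against GFP-low cells (log2 fold change 2.67, SE 0.51, limma adjusted p = 0.0417, and 0.260 without GFP-high replicate 3). This call of Col4a5 was lost in 5 of the 6 fits without 1 library. Its neighbour Col4a6 had 37, 75 and 86, then 21, 3 and 12, then 8, 14 and 4, without passing (limma adjusted p = 0.090 against GFP-negative cells).

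No fibrillar gene of the small intestine passed the threshold between sorted populations. In GFP-high against GFP-negative cells 3 of the 6 tested had an unadjusted limma p under 0.05, as did 1311 of 12412 genes. Col1a1 had 3604, 5495 and 4311 in GFP-high, 6349, 8103 and 5567 in GFP-low and 12786, 14206 and 8504 in GFP-negative cells. These groups did not overlap, but the log2 fold change of −1.39 between the outer groups did not pass (limma adjusted p = 0.0780). Col3a1 had 2987, 2957 and 3407, then 5875, 8852 and 6446, then 7748, 7052 and 4963, with GFP-high below the other 2 and those overlapping. Pericyte and smooth muscle markers summed to 5041 to 9443 in GFP-high, 5903 to 8547 in GFP-low and 2209 to 3730 in GFP-negative cells, and 5 of them were higher in GFP-high than in GFP-low cells. Endothelial markers reached 1531 in GFP-negative replicate 1 and ranged down to 194 in that group. Their part in the collagen differences was not tested.

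The ratio of the 2 related FACIT genes in a library does not depend on its scaling. Col14a1 over Col12a1 was 1.49 to 1.83 in GFP-positive and 11.8 to 17.9 in GFP-negative cells of normal colon, and 0.239 to 0.437 and 7.92 to 13.4 in DSS colon. In the small intestine it was 4.71 to 8.72 in GFP-high, 37.1 to 47.0 in GFP-low and 142 to 286 in GFP-negative cells. No 2 of these sorted populations of a tissue and condition overlapped. Both genes were already described above, so the ratio restates them free of scale. An exact permutation test of the ratio gave p = 0.1 in each of these comparisons of sorted populations. That is the smallest p that 3 libraries a group allow, so the test could not pass 0.05. Further ratios of chains were computed and are not given here. Col15a1 over Col18a1 was 1.66 to 2.04 in GFP-positive and 3.81 to 6.01 in GFP-negative cells of normal colon, and 0.0866 to 0.233 and 0.350 to 0.634 in DSS colon. Its 4 colon groups did not overlap, and its exact permutation p was likewise 0.1 for the GFP contrast of normal and of DSS colon.

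Compared with unsorted cells, most collagens called were higher in the sorted mesenchymal cells. In GFP-positive cells of normal colon 10 of 26 were higher and 2 lower, where 7.72% and 14.1% of all genes were called higher and lower, or 21.8% in all. In GFP-negative cells there 7 of 27 were higher and 3 lower, against 5.81% and 13% of all genes, or 18.8% in all. In DSS colon the calls were also mostly higher. There 12 of 22 were higher and 1 lower in GFP-positive cells (15.8% and 21.3% of all genes, or 37.1% in all), and 15 of 21 were higher and 1 lower in GFP-negative cells (13.7% and 19.3%, or 33% in all). All 6 fibrillar genes tested were among these 15. In the small intestine 17 of 25 were higher and 2 lower in GFP-high cells (6.13% and 11.1% of all genes, or 17.2% in all). The counts were 14 and 2 of 25 in GFP-low cells (9.13% and 13.7%, or 22.8% in all) and 10 and 1 of 24 in GFP-negative cells (4.58% and 6.96%, or 11.5% in all). The 3 comparisons of the small intestine rest on 2 unsorted libraries. Without replicate 2 of these, no collagen was called for GFP-high or GFP-negative cells, and 6 for GFP-low cells, and without replicate 3 none was called for GFP-high cells. In normal colon, GFP-negative cells had 4 calls without their replicate 2. With equal library totals the share of higher genes among all calls fell from 41.5% to 30.4% for GFP-negative against unsorted cells of DSS colon, where 14 collagens were then higher and 1 lower.

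Col9a2 and Col11a1, whose products are known from cartilage, were among the few collagens called lower in sorted than in unsorted cells. In normal colon Col28a1 was called lower in GFP-positive cells, and Col11a2 and Col13a1 in GFP-negative cells. Col13a1 was also called lower in GFP-negative cells of DSS colon. None of these calls of Col28a1, Col11a2 and Col13a1 held in every fit without 1 library. In normal colon the calls of Col9a2 did. The calls of Col9a2 and Col11a1 in the small intestine did not, and they rest on 2 unsorted libraries. Col9a2 had 43, 30 and 46 normalised counts in the unsorted normal colon and at most 2 in any sorted library of it, and 20 and 19 in the unsorted small intestine against 0 in all 3 GFP-high libraries. Col11a1 had 12 and 10 in the unsorted small intestine and at most 1 in its sorted libraries. For these genes the unsorted cells were high and the sorted ones were at or near 0. In the comparisons with values given here, these 2 genes reached the mean of 10 set for testing only in the unsorted cells. They could therefore only be called lower in sorted cells. Col28a1 had 14, 9 and 16 in the unsorted normal colon, between the GFP-negative and the GFP-positive cells. Against GFP-positive cells Col28a1 too reached that mean only in the unsorted ones. Col8a1 in DSS colon had 148, 132 and 139 in unsorted cells, above GFP-positive and below GFP-negative cells, and was called in opposite directions against unsorted cells (log2 fold changes of −1.60 and 2.13). Immune markers summed to 13047 to 49774 in unsorted cells of normal colon and 22488 to 24801 in those of the small intestine, well above all sorted groups. In normal colon the endothelial, pericyte and smooth muscle, and glia lists were high in unsorted cells too. Endothelial markers summed to 2200 to 2916 against 216 to 431 in sorted cells, and pericyte and smooth muscle markers to 8517 to 12574 against 1194 to 5577. Glia markers summed to 293 to 537 against 26 to 96. Of 6 mesenchymal markers, 2 were higher and 1 lower in GFP-positive than in unsorted cells of normal colon, with a median log2 fold change of −0.02. In GFP-negative cells there 2 were higher and 0 lower, with a median of 0.87. Their part in these differences was not tested.

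Genes that make and read collagen were called in both directions. Of 22 collagen-modifying enzymes and chaperones, 1 was higher and 1 lower in GFP-positive cells of normal colon, where 5.98% of all genes were called. P3h2 (a prolyl 3-hydroxylase that acts on collagen IV) was higher and P4ha3 (a catalytic subunit of prolyl 4-hydroxylase) lower, by log2 fold changes of 2.53 (limma adjusted p = 0.000686) and −2.31 (limma adjusted p = 0.00549). In DSS colon 3 of 22 were higher (P3h2, Plod1 and P3h1) and 3 lower (P4ha3, Tmem38b and Plod2), where 17.1% of all genes were called. In colitis 1 of the 21 tested rose in GFP-positive cells, Serpinh1 (the collagen chaperone HSP47, log2 fold change 0.99), and 2 fell, Crtap and Fkbp14, where 19.7% of all genes were called.

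Among procollagen proteinases and their enhancers, Pcolce2, an enhancer of the removal of the C-terminal propeptide, was lower in GFP-positive cells of normal colon by a log2 fold change of −2.61 and of DSS colon by −2.97, and in GFP-high against GFP-negative cells of the small intestine by −3.31. It also fell in colitis in both populations, by −2.84 in GFP-positive and −2.49 in GFP-negative cells. Adamts2, which removes the N-terminal propeptide of fibrillar collagens, was lower in GFP-positive cells of DSS colon (−1.36), as was Pcolce (−0.67). Of the collagen receptors, the integrin chain Itga1 was higher in GFP-positive cells of normal (1.33) and DSS colon (0.82). It was the only call of 7 tested in normal colon, while 1 of 7 was also lower in DSS colon. In colitis the receptor kinase Ddr1 rose by 1.33 in GFP-positive and 1.79 in GFP-negative cells on the log2 scale, and Itga11, an integrin chain that binds collagen I, fell by 1.56 and 1.39. Each of these named changes passed the limma threshold. Of 5 proteinases and enhancers tested, none was higher, and 1 was lower in the GFP contrast of normal colon and 3 in that of DSS colon. For GFP-high against GFP-negative cells 1 of 5 was lower. In colitis 2 of 5 fell in GFP-positive and 1 of 5 in GFP-negative cells. Of all genes, 5.98%, 17.1%, 0.894%, 19.7% and 10.3% were called in these comparisons, in this order.

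Of the 35 collagens, 6 reached a mean of 10 normalised counts in no group and were tested nowhere. These were Col2a1, Col4a3, Col9a3, Col17a1, Col25a1 and Col26a1, whose highest library values were 17, 5, 8, 7, 10 and 6. A further 10 were tested at least once and passed the threshold in no comparison of sorted cells, and of these Col4a1, Col5a1 and Col16a1 had at least 206 normalised counts in every library. The other 7 (Col4a4, Col7a1, Col8a2, Col9a2, Col11a1, Col11a2 and Col20a1) stayed at 46 normalised counts or fewer in every library. Col5a1, a chain that starts collagen V assembly, had 3817, 4160 and 4011 normalised counts in GFP-positive and 3174, 3759 and 5023 in GFP-negative cells of normal colon. Col16a1, a FACIT collagen, had 2275, 2090 and 2800 against 1929, 1754 and 1276 there, without overlap and without passing the threshold.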

How the data were processed

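Each of 14 deposited tables compares a pair of groups. Their values are normalised counts, which the authors rounded to whole numbers, and are therefore treated as a score and not as raw counts. The deposited tables also give the authors' DESeq p-values adjusted as false discovery rates and log2 fold changes. Per the submitters' processing notes, TopHat2, Bowtie2, DESeq and mm10 were used (no versions given), and the strand of counting is not given in the sources used here. All value columns used were mapped to samples by title (0 left unmapped), giving 29 libraries in 10 groups. The 4 scales have no common factor: the common colon scale was 0.836 to 0.844 times the normal and 1.17 to 1.18 times the DSS scale.

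A gene was tested where the mean of either compared group reached 10, with limma 3.58.1 (R 4.3.3) on log2(value + 1), with intensity trend and robust variance, and called at an adjusted p of 0.05. The steps were tested on simulated data. Per-library values are given for collagens past the threshold in at least 1 of the 8 sorted comparisons. The members and all gene lists were chosen with earlier results of these data known. Alternatives were a pseudocount of 5, no filter, equal totals, a replicate block, 1 fit over all groups of a scale, the authors' false discovery rate and leaving out each library. Depth was estimated from the spacing of low values, so its precision is limited, and at these depths a value of 1 to 3 stands for a few reads.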

Additional observations from a re-analysis of the deposited data

Results flagged for a closer look

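Col15a1 and Col16a1 had every library of GFP-positive normal colon cells and of GFP-low small intestine cells on opposite sides of the respective GFP-negative cells. Col15a1 was lower in GFP-positive cells of normal colon (log2 fold change −1.53) and of DSS colon (−1.33), while its log2 fold change in GFP-low against GFP-negative cells of the small intestine was 0.55, with 1041, 750 and 744 normalised counts against 596, 547 and 571. In GFP-high against GFP-negative cells there, Col15a1 had the same sign as in the colon (−0.19), with all 3 libraries below the GFP-negative ones, at 510, 455 and 537. For Col16a1 the log2 fold change was 0.54 in GFP-positive cells of normal colon and −1.15 in GFP-low cells of the small intestine, where it had 951, 1281 and 632 against 1859, 2546 and 1798, and −0.76 in GFP-high cells. The difference between the tissues was not tested, since they stand on separate scales, and none of the small intestine values passed the threshold.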

How the results depend on the processing

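Of 144 collagen calls over all comparisons, none changed direction under any alternative. A pseudocount of 5 kept 144, no filter 143, equal library totals 143 and the replicate block 138. A fit over all groups of a scale kept 126 of the 137 it could give, and 66 held in every fit without 1 library. The authors' DESeq false discovery rate kept 26, and the cause was not tested. By it the collagens called were 2 (normal colon, GFP-positive against GFP-negative), 4 (the same in DSS colon), 0 and 0 (DSS against normal in GFP-positive and GFP-negative cells), 1, 0 and 0 (small intestine, GFP-high against negative, low against negative, high against low). Against unsorted cells they were 4 and 2 (normal colon, GFP-positive and GFP-negative), 6 and 4 (DSS colon), and 1, 2 and 0 (small intestine, GFP-high, low and negative). With all groups in 1 fit, DSS against normal in GFP-negative cells gave 10 calls in place of 6 and GFP-high against GFP-low 0 in place of 3, and the cause was not tested. Scaling to equal totals moved the median log2 fold change of all genes by over 0.1 in the DSS responses, given above, and also from 0.06 to 0.17 for GFP-high against GFP-negative, −0.06 to 0.07 for GFP-positive against unsorted normal colon, −0.05 to −0.23 for GFP-negative against unsorted DSS colon and −0.14 to −0.02 for GFP-high against unsorted small intestine.

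Replicate numbers are shared between groups. The numbers were taken to pair libraries only where every same-numbered pair's deviations from the group means correlated above 0.1, which no comparison reached, although all pairs were positive in some. The lowest of the 3 correlations was 0.030 for the GFP contrast of DSS colon, 0.015 for DSS against normal in GFP-negative cells, 0.045 for GFP-negative against unsorted cells of DSS colon and 0.078 for GFP-high against GFP-low cells. In the last of these, and in no other comparison, every library correlated best with its own number, a hint from the data and not from the design. A replicate block gave 0 calls in place of 1 for GFP-low against GFP-negative cells and 16 in place of 15 for the GFP contrast of DSS colon, and 9 for that of normal colon, as without it.

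Leaving out 1 library at a time gave 6 to 9 calls (9 with all libraries) for the GFP contrast of normal colon, 12 to 15 (15) for DSS colon, 6 to 9 (9) for the DSS response of GFP-positive cells, 1 to 9 (6) for that of GFP-negative cells, with 1 without DSS replicate 3 and 9 without normal replicate 1, and 0 for the difference of responses. In the small intestine it gave 2 to 4 (4) for GFP-high and 0 to 2 (1) for GFP-low against GFP-negative, and 0 to 2 (3) for GFP-high against GFP-low cells. Against unsorted cells it gave 8 to 13 (12) and 4 to 9 (10) in normal colon, 10 to 15 (13) and 12 to 16 (16) in DSS colon, and 0 to 20 (19), 6 to 15 (16) and 0 to 12 (11) in the small intestine. Fewer libraries enter these fits, and where 1 unsorted library remained it was assumed to vary like the other groups.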
